A study of Mus musculus with 2 samples.

Results

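The 10 genes considered here encode granule and antimicrobial proteins of neutrophils, and their UMI counts were followed through a single-cell RNA-seq data set of mouse olfactory epithelium: S100a8, S100a9, Camp, Ngp, Ltf, Lcn2, Mmp8, Mmp9, Retnlg and Slpi. They were chosen by symbol, and all 10 of 10 were among the 31053 genes of the deposited matrix. The tissue came from a male C57BL/6 mouse with unilateral naris occlusion from postnatal day 14, and a closed-side (L) and an open-side (R) sample were taken at postnatal day 28. Cells were dissociated, frozen, thawed and cleared of dead cells before capture on the Chromium platform with version 3 chemistry, and no label describes more than a single animal. The matrix marks its libraries only by the barcode suffix, and nothing in it ties a suffix to a side, so they are called library 1 and library 2 and no effect of occlusion was estimated. With 1 library on each side and no replicates, no test was possible, and intervals below are 95% exact Poisson or binomial intervals that cover counting error only.

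Neutrophils build their granules in waves while they mature in bone marrow. Azurophil granules with myeloperoxidase and elastase come first, specific granules with lactoferrin, lipocalin 2 and cathelicidin follow, and gelatinase granules with matrix metalloproteinases come last, while the calcium-binding S100A8 and S100A9 fill the cytosol. Several of these proteins are also made by epithelia, where lactoferrin and lipocalin 2 withhold iron from microbes, so in a mixed tissue a transcript may come from neutrophils, from epithelium or from free RNA in the droplet.

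The filter kept 8298 of 12491 barcodes, 3032 in library 1 and 5266 in library 2, at medians of 5528 and 5139.5 UMIs, where a UMI marks 1 captured transcript molecule. Cells were clustered without the 10 genes, and clusters were named only from markers that did not include them. The libraries shared 12 barcode sequences, 6 of them kept in both and none of them in a neutrophil group. Clusters 10 and 22, with 272 and 108 cells, were neutrophil-like, the former led by genes such as Ifitm6, Chil3 and Ly6g and the latter by Il1b and Stfa1. They made up 3.07% of kept cells in library 1 and 5.45% in library 2. Dividing clusters 10, 13 and 22 again gave 5 neutrophil groups, each called by the first neutrophil marker among its leading genes. In the Il1b group Ltc4s, Ccrl2, Igfbp6 and Siglecf led ahead of Il1b, and whether all its cells are neutrophils was not tested. The Mpo group had 49 cells, the Fcnb group 33, the Ly6g group 138, the Asprv1 group 72 and the Il1b group 105. The first 4 were set in the order given from the fall of early and the rise of late stage markers. From the Ly6g to the Asprv1 group early markers differed only by 6 against 1 UMIs. That step thus rests on late markers, at 1622 and 5947 CPM. The stage score, log2 of late markers minus log2 of early markers, was 7.30 in the Ly6g, 9.40 in the Il1b and 9.91 in the Asprv1 group. It thus placed the Il1b group between the Ly6g and Asprv1 groups, a place not used here. The Asprv1 and Il1b groups were not ordered against each other. Their early markers also differed only by 1 against 6 UMIs. Late markers summed to 23563.5 CPM in the Il1b group, with Il1b alone at 19688 CPM. A further sub-cluster of 42 cells mixed neutrophil genes with genes of sensory neurons and sustentacular cells and stayed unnamed. Of those 42 cells, 33 were among the barcodes with the highest doublet scores, as were 17 of the 397 cells of the 5 groups. Those barcodes were 109 of 3032 in library 1 and 337 of 5266 in library 2. The scoring called too few doublets to have worked, and whether the sub-cluster holds doublets was not tested.

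Start-site windows for 9 of the 10 genes were found in RefSeq on GRCm38.p6. Each runs from 250 bases before to 50 after the start given there. For members other than S100a9, that start differs from the 5′ end of the mm10 span given below. The Lcn2 and Slpi windows lie wholly inside those spans. Distances of matches are counted from the window's own start. S100a8 (chr3:90668978-90670035, + strand) and S100a9 (chr3:90692632-90695721, - strand) are neighbours whose 5′ starts lie 26.7 kb apart. Camp, Ngp, Ltf and Mmp8 lie on chromosome 9, Lcn2, Slpi and Mmp9 on chromosome 2, and Retnlg on chromosome 16. Of the other members, Camp spans chr9:109847379-109849617, Ngp chr9:110419747-110423012, Ltf chr9:111019271-111042767, Lcn2 chr2:32384633-32388252, Mmp8 chr9:7558456-7568485, Mmp9 chr2:164940780-164955850, Retnlg chr16:48872621-48874496 and Slpi chr2:164354070-164389095, all in mm10. The windows of 6 members are shown, since S100a9 stands for the cytosolic pair, Camp and Ngp for the genes highest in the Fcnb group, Ltf and Lcn2 for those with epithelial sources, and Retnlg for the genes highest in the Asprv1 group. Each is given 5′ to 3′ on the gene's strand, with capitals marking matches to the C/EBP form TTGCNNAA on either strand.
S100a9: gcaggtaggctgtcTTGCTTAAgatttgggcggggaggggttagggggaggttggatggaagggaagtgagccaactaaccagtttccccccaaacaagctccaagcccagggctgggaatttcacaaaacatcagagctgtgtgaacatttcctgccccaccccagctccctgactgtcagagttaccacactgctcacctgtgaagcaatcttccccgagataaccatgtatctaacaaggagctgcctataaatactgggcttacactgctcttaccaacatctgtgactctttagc
Camp: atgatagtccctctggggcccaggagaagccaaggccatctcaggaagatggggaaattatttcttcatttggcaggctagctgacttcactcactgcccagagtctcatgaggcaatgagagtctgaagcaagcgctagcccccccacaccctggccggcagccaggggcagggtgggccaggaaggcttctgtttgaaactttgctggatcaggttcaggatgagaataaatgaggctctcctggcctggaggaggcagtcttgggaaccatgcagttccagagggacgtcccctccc
Ngp: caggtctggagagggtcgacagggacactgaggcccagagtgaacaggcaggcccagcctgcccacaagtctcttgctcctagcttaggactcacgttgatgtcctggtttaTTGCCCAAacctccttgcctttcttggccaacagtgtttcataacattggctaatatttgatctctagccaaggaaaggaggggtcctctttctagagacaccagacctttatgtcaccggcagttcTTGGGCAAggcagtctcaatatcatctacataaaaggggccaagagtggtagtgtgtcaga
Ltf: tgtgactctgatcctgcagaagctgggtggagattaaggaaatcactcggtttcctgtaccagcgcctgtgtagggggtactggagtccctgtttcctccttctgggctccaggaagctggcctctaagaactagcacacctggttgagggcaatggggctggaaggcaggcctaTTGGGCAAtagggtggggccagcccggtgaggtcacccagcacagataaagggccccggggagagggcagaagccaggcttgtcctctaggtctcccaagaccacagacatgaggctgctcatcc
Lcn2: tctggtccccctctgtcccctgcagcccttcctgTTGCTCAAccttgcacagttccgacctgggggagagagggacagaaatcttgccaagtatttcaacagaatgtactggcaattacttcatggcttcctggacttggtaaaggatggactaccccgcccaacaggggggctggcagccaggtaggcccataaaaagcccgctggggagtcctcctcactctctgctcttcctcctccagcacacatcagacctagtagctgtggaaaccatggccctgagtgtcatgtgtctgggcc
Retnlg: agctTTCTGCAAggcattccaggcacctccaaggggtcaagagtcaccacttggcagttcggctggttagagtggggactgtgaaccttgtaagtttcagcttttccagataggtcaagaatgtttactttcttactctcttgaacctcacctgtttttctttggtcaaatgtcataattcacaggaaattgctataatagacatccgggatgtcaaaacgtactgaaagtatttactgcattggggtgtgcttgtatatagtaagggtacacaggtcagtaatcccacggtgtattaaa
The windows lie at chr3:90695672-90695971 for S100a9, chr9:109849407-109849706 for Camp, chr9:110419558-110419857 for Ngp, chr9:111019042-111019341 for Ltf, chr2:32387690-32387989 for Lcn2 and chr16:48872358-48872657 for Retnlg. The C/EBP family of transcription factors acts at several steps of granulopoiesis. TTGCNNAA was found in 7 of 9 members' windows and in 10.8% of all 32851 windows in the table, and the windows of S100a8 and Camp did not hold it. In Ltf the match began 75 bases before the start and in Mmp8 19 bases before it, whereas in Retnlg it began 246 bases before. Ngp held a pair of matches, at 138 and 11 bases before the start. GAGGAA, the core bound by PU.1, was in 4 of 9 windows against 28.3% of all, a loose NF-kB form (GGG, any 5 bases, then CC) in 3 of 9 against 50.8%, and TATAAA in 3 of 9 against 13.6%, each on either strand. These forms were chosen with the sequences in view, and a match is a description of the letters in the window.

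Expression of the 10 genes was concentrated in a small part of the tissue. The 380 neutrophil-like cells held 88.3% of all member UMIs in kept cells. For S100a8 the share was 91.0%, for Ngp 93.1% and for Retnlg 97.8%. The exception was Ltf, of whose UMIs only 24.1% lay in neutrophil-like cells and 40.4% in the 82 gland acinar-like cells. Lcn2 was between, with 76.9% in neutrophil-like cells. Slpi had 68.9% there, and 91.0% once cluster 13, which holds the Mpo group and monocyte-like cells, was counted too.

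Across the neutrophil groups the genes followed 3 courses. S100a8 and S100a9 were high from the Fcnb group on, Camp and Ngp peaked in the Fcnb group and were far lower in the Asprv1 and Il1b groups, and Mmp8, Mmp9, Retnlg and Slpi were highest in the Asprv1 group. Ltf and Lcn2 peaked in the Ly6g group. Levels are given as CPM, a gene's share of the UMIs summed over a group's cells. The groups differed in depth as well, with median UMIs per cell of 18940 in the Mpo, 11094 in the Fcnb, 4498 in the Ly6g, 2549.5 in the Asprv1 and 1574 in the Il1b group. The part of depth and total RNA in these levels was not tested. Counted as mean UMIs per cell, S100a8, S100a9, Ltf and Lcn2 were highest in the Fcnb group and Mmp8 and Mmp9 in the Ly6g group, so the group of highest level depends on that scale for 6 of the 10 genes. In library 1 alone Ltf was highest in the Fcnb and Mmp9 in the Ly6g group by CPM. Leaving S100a8 and S100a9 out of the totals left the group of highest level the same for all 10 genes.

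**Figure D1:**
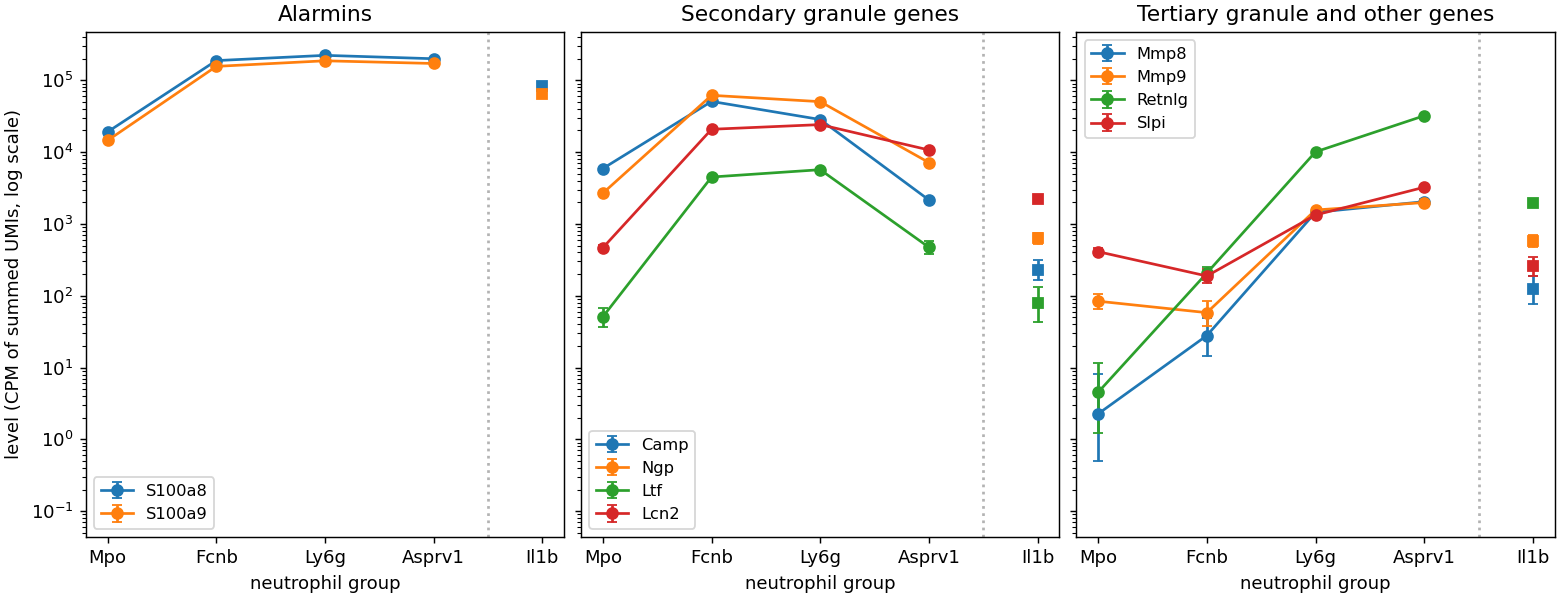
Level of each gene in the 5 neutrophil groups, as CPM of summed UMIs on a log scale, with 95% Poisson intervals of counting error. Circles joined by lines are the 4 ordered groups, and squares right of the dotted line are the Il1b group, which was not ordered against the Asprv1 group. S100a8 and S100a9 stay near their maximum from the Fcnb to the Asprv1 group, Camp and Ngp are lower by the Asprv1 group, and Retnlg rises to 32093 CPM there.

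S100a8 and S100a9 encode the subunits of calprotectin, which binds calcium and chelates zinc and manganese. S100a8 stood at 19124 CPM in the Mpo, 188070 in the Fcnb, 222580 in the Ly6g, 199668 in the Asprv1 and 83067 in the Il1b group. S100a9 followed it at 14530, 156307, 186873, 171429 and 63829 CPM in the same order. Together they made up a median of 35.1% of a cell's UMIs in the Fcnb group, 41.4% in the Ly6g group and 37.6% in the Asprv1 group, with cells of the Ly6g group between 12.7% and 54.2%. In the Il1b group the median was 12.8% and the cells spread from 0% to 31.9%, so that this group overlapped every other one.

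The Mpo group held cells without the pair and cells rich in it. Its median share was 0.0110% and its highest 20.4%, and 19 of its 49 cells had no UMI of either gene. The 14 cells with 1 to 19 UMIs of the pair held 80 UMIs of S100a8 and 5 of S100a9. Counting cells with at least 5 UMIs, 21 of 49 had S100a8, 15 had S100a9, 7 had Camp, 6 had Ngp and 2 had Ltf. These sets were nested: all 7 cells with Camp also had S100a8 and S100a9, all 6 with Ngp had Camp, and both with Ltf had Ngp. All 33 cells of the Fcnb group had at least 5 UMIs of S100a8, S100a9, Camp, Ngp and Lcn2. The cells of the Mpo group without the pair had a median of 6800 UMIs and those with 20 or more UMIs of it 23587, and the part of that depth in the counts was not tested.

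**Figure D2:**
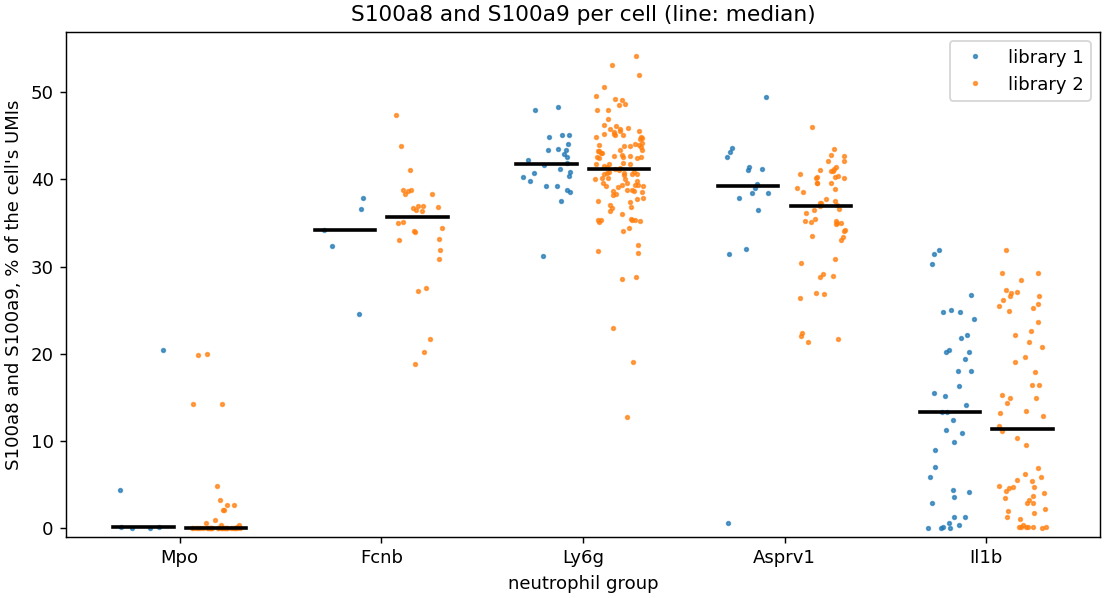
S100a8 and S100a9 UMIs as a percentage of all UMIs of each cell, by neutrophil group and library. Each point is a cell and black lines are medians. Most cells of the Mpo group are near 0 with a highest value of 20.4%, cells of the Ly6g group centre on 41.4%, and cells of the Il1b group spread from 0% to 31.9%.

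Camp, Ngp, Ltf and Lcn2 encode cargo of the specific granule. Camp, the cathelicidin precursor, went from 5911 CPM in the Mpo group to 50789 in the Fcnb group, then to 28436 in the Ly6g and 2155 in the Asprv1 group. Ngp, a cystatin-related granule protein, stood at 2683, 61773, 50427 and 7157 CPM. Ltf, the iron-binding lactoferrin, had 51.0, 4498, 5690 and 473 CPM. Lcn2, which captures bacterial siderophores, had 466, 20796, 24152 and 10710 CPM. In the Il1b group the 4 genes stood at 231, 631, 78.9 and 2253 CPM. Camp was carried there by 2 of 105 cells, while Lcn2 was seen in 32.4% of them. Few cells also set the low levels of the Asprv1 group, where 3 cells held 59.8% of the Camp and 75.8% of the Ltf UMIs and the levels without them were 937 and 124 CPM. In the Mpo group, 3 cells held 71.4% of the Camp and 81.5% of the Lcn2 UMIs.

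Mmp8, Mmp9, Retnlg and Slpi came up later. Mmp8, the neutrophil collagenase, had 2 UMIs in the Mpo and 12 in the Fcnb group, and reached 1450 CPM in the Ly6g and 2041 in the Asprv1 group. Retnlg, a secreted resistin-like protein, went from 4.54 CPM through 207 and 10082 to 32093, and 98.6% of cells of the Asprv1 group had a UMI of it. Mmp9, gelatinase B, was at 58.1, 1563 and 1984 CPM from the Fcnb to the Asprv1 group. Its 83.9 CPM in the Mpo group came from a single cell with 73 of 74 UMIs, and that cell also held 43 UMIs of Ctsk and 37 of Acp5, which are known from osteoclasts. In the Il1b group Mmp9 stood at 586 CPM and had a UMI in 41.9% of cells, against 5.71% for Mmp8.

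Slpi, a secreted inhibitor of neutrophil elastase and cathepsin G, was at 410 CPM in the Mpo group, 188 in the Fcnb, 1331 in the Ly6g and 3241 in the Asprv1 group. In the Mpo group 15 of 49 cells had at least 5 UMIs, and 185 of its 362 UMIs lay in the 19 cells without S100a8 or S100a9. The 3 cells richest in Slpi held 64.4% of the UMIs there, and the level without them was 167 CPM, below that of the Fcnb group. Elane and Ctsg, whose products it inhibits, were at 5786 and 2350 CPM in the Mpo group and at 0 in the Ly6g group.

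Differences between groups were read against all genes with at least 50 UMIs over both groups. From the Mpo to the Fcnb group, 7 of 9 members compared were at least 2-fold higher, as were 5.01% of 3014 genes. The log2 differences were 3.30 for S100a8, 4.52 for Ngp and 6.43 for Ltf. Slpi was lower by more than 2-fold, as were 46.4% of genes, and the median log2 difference over all genes compared was -0.89. The members took 4.33% of all UMIs in the Mpo and 48.3% in the Fcnb group. Levels are shares of a total, so a rise of some members also lowers the levels of other genes. The 46.4% is thus no background independent of the members. For Slpi the log2 difference was -1.12 (interval -1.49 to -0.77). That difference rests on the 3 richest cells of the Mpo group, without which the levels were 167 CPM in the Mpo group and 188 CPM in the Fcnb group. From the Fcnb to the Ly6g group, Mmp8, Mmp9, Retnlg and Slpi were at least 2-fold higher against 12.9% of 1566 genes, and none of 10 was 2-fold lower against 22.2%. Camp came nearest to that fold, at -0.84 on the log2 scale.

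The Asprv1 group, set against the Ly6g group, had Retnlg and Slpi at least 2-fold higher, with log2 differences of 1.67 and 1.28, as did 12.4% of 1213 genes. Camp, Ngp, Ltf and Lcn2 were at least 2-fold lower there, against 7.42% of genes, with log2 differences of -3.72, -2.82, -3.59 and -1.17. S100a8 was nearly level at -0.16. In the Il1b group all 10 members were at least 2-fold lower than in the Ly6g group, as were 10.6% of 1386 genes. They were also at least 2-fold lower than in the Asprv1 group, against 10.9% of 843 genes. The members' median log2 difference was -2.90 from the Ly6g group and over all genes compared it was 0.90. The members took 53.3% of all UMIs in the Ly6g, 43.1% in the Asprv1 and 15.3% in the Il1b group. Levels are shares of a total, so the levels of other genes rise where those of the members fall. The 0.90 and the shares of genes higher given next are thus no background independent of the members. No member was 2-fold higher in the Il1b group, against 45.2% of genes when set against the Ly6g group and 38.8% when set against the Asprv1 group. For Ngp, 94.6% of the UMIs of the Il1b group lay in 3 cells, and for Retnlg 50.4%. The part of a mix of cell types in the lower levels of that group was not tested.

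Other granule genes are given as a description, since unlike the members they took part in the clustering that made the groups. Of 7 measured azurophil granule genes, 5 peaked in the Mpo group, with Mpo, Elane, Prtn3 and Ctsg at 2865, 5786, 8876 and 2350 CPM. All 5, with Ms4a3, were among the early stage markers that set this group first, and Mpo also named it. Their peak there was thus built into the order and is no separate result. Ctsc peaked in the Il1b group at 293 CPM. Lyz2, lysozyme, peaked in the Ly6g group at 7794 CPM. Of 13 specific granule partners, 4 peaked in the Fcnb group and 6 in the Ly6g group, among them Chil3 at 5117 CPM in the Fcnb group and Pglyrp1, a peptidoglycan-binding protein, at 2973 CPM in the Ly6g group. The 4 partners that peaked in the Fcnb group include Fcnb, which named it, and Chil3 and Orm1, which were among its leading genes. Of 9 measured genes of gelatinase granules and secretory vesicles, 6 peaked in the Asprv1 group. Among them were Adam8 at 545 and Alox5ap at 2410 CPM. The share of all genes that peaked in each group is not given here, so the counts in this paragraph have no background. Of 9 granulopoiesis factors, Cebpe, a factor required for specific granules in mice, peaked in the Fcnb group at 570 CPM, Gfi1 in the Mpo group at 47.6 CPM, and Cebpb in the Il1b group at 4647 CPM. Il1b itself was at 19688 CPM in the Il1b group and 1844 CPM in the Asprv1 group. Of 8 measured cytosolic and ligand partners, S100a6 and S100a11 peaked in the Asprv1 group at 13317 and 6124 CPM. Of 10 measured protease partners and inhibitors, 4 peaked in the Mpo group, among them the early stage markers Elane, Ctsg and Prtn3.

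Over all 30 clusters, the genes most like S100a8 in log2 level were Wfdc21 (Pearson r 0.947), Cebpe (0.935) and Mcemp1 (0.932), as a description with no test. Fcnb was nearest to Camp (0.894), Wfdc21 to Ngp (0.886), Itgb2l to Mmp8 (0.957), Mcemp1 to Mmp9 (0.933), Ceacam10 to Retnlg (0.937) and Gm14548 to Slpi (0.917). Ltf and Lcn2 had less close neighbours, Qsox1 (0.807) and Lbp (0.810).

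Ltf reached a level in glands like that in neutrophils. In the 82 gland acinar-like cells of cluster 24 Ltf stood at 5916 CPM (interval 5804 to 6030), against 4151 CPM in neutrophil-like cluster 10 and 5690 CPM in the Ly6g group, and 68.3% of the cells had a UMI. Single cells weighed heavily, since the 3 highest held 42.4% of the UMIs and the level without them was 3534 CPM, below that of cluster 10. Cluster 14, respiratory secretory-like with Bpifa1 and Reg3g, had 1418 CPM, the unnamed cluster 11 led by Bpifb3 and Rgs5 had 1039 CPM, and respiratory ciliated-like cluster 26 had 772 CPM. Of the 2 HBC-like clusters, where HBC are horizontal basal cells, cluster 4 had 222 CPM and cluster 6 had 7 cells with a UMI. Ionocyte-like cluster 20 had 355 CPM, of which 81.0% lay in 3 cells. By library, Ltf in cluster 24 was at 3819 CPM over 19 cells in library 1 and 6477 CPM over 63 cells in library 2. Mature olfactory sensory neuron-like cells had 3.44 CPM, and of 123 UMIs in the immature cluster 95.1% came from 3 cells.

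Lcn2 had another epithelial pattern. Its level was 645 CPM in HBC-like cluster 4 and 275 CPM in cluster 6, 497 CPM in respiratory secretory-like cluster 14, 493 CPM in cluster 11 and 437 CPM in ciliated-like cluster 26. Gland acinar-like cells, richest in Ltf, had Lcn2 UMIs in 4 of 82 cells. In cluster 26 the 3 highest cells held 66.3% of the UMIs, and the level without them was 156 CPM. The unnamed cluster 0, led by Gstm1 and Cyp4b1, had a lower level of 141 CPM spread over 36.9% of its 977 cells, against 1.83% of cells in mature olfactory sensory neuron-like cluster 1. Endothelial-like cluster 27 had Lcn2 in 16 of 64 cells, with 56.0% of its UMIs in 3 cells, and no UMI of Ltf. At a floor of 3 cells, that allows a share of up to 4.69% of cells with a UMI, which is no limit on cells that express the gene.

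**Figure D3:**
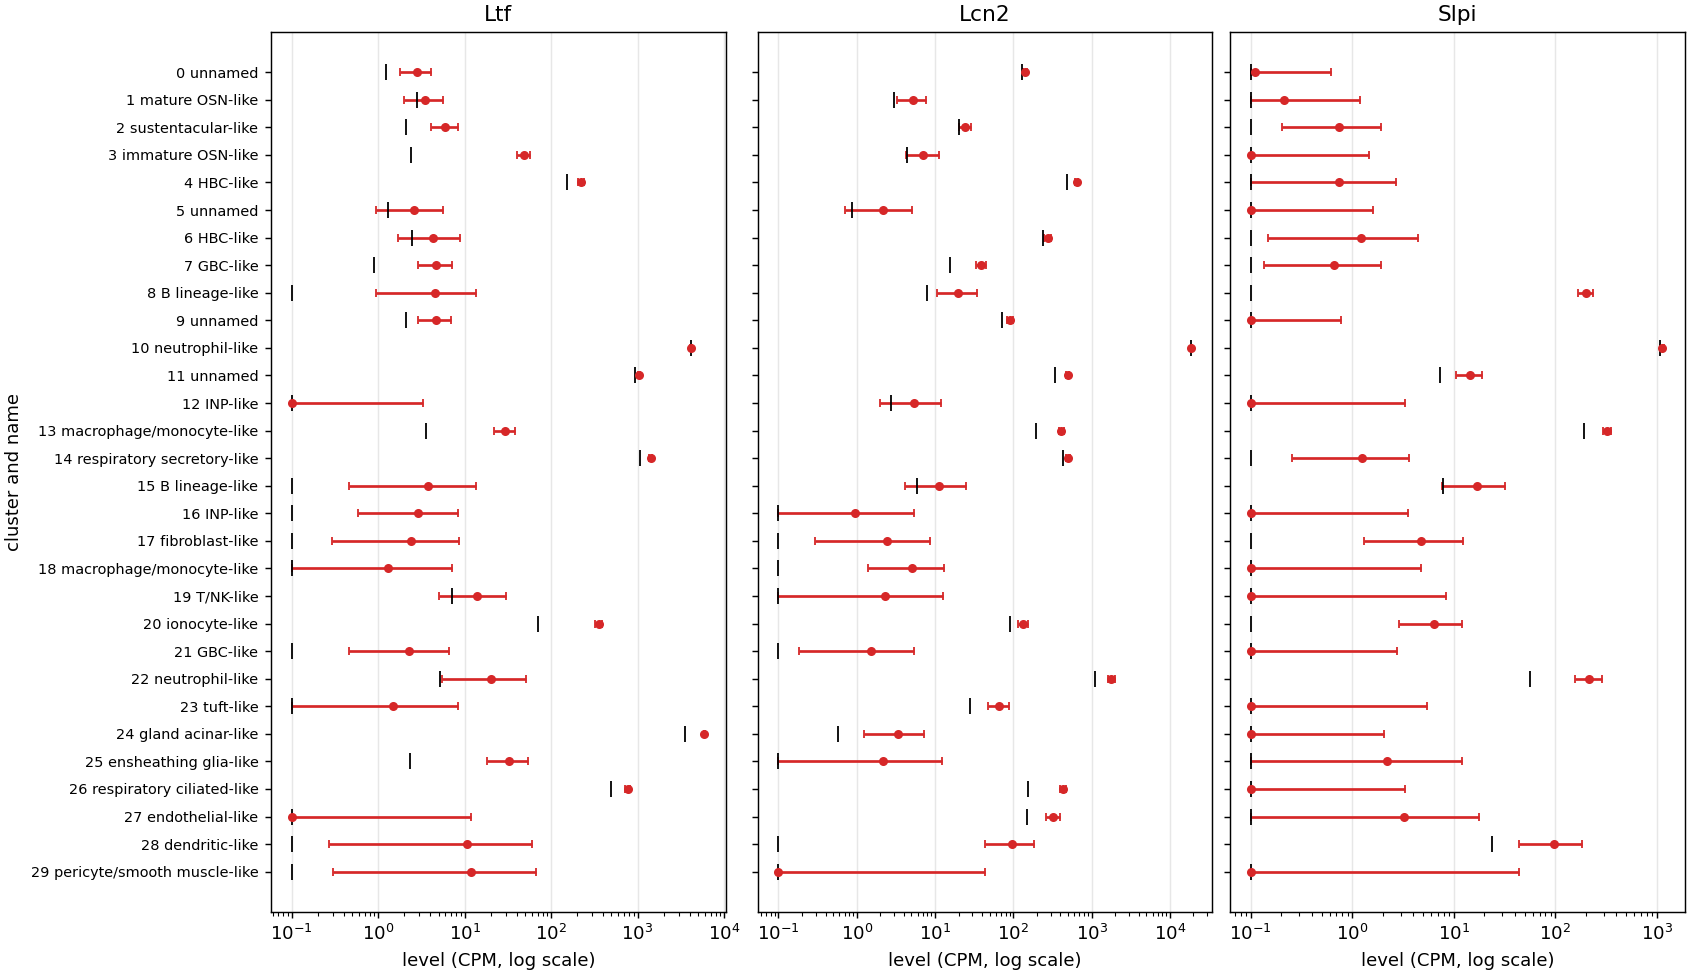
Levels of Ltf, Lcn2 and Slpi in each of the 30 clusters, as CPM on a log scale. Points have 95% Poisson intervals, black ticks give the level without the 3 cells richest in the gene, and values under 0.1 CPM are drawn at 0.1. Ltf is highest in gland acinar-like cluster 24, Lcn2 in neutrophil-like cluster 10 with a second range in basal and respiratory clusters, and Slpi outside myeloid cells rests on few cells.

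The cells with both genes varied by cluster. In cluster 11, 126 of 268 cells had at least 5 UMIs of Ltf, 55 had as many of Lcn2 and 50 had both. In cluster 14 the counts were 79, 61 and 29 of 205 cells, and in cluster 4 they were 20, 81 and 11 of 429. Of 14 other antimicrobial genes listed for epithelium, 6 had their highest level in cluster 14, 3 in cluster 24, and 1 each in clusters 4 and 11. The other 3 were highest in myeloid clusters, such as Lyz2 at 6993 CPM in macrophage-like cluster 18 and Pglyrp1 at 2453 CPM in neutrophil-like cluster 10. Among the former were Bpifa1 and Reg3g at 144443 and 24406 CPM in cluster 14. Dmbt1 and Wfdc18 stood at 4360 and 256442 CPM in cluster 24, and Defb1 at 375 CPM in cluster 4. Bpifa1, Reg3g and Muc5b were among the markers that named cluster 14, and Lcn11 among those that named cluster 24. Their peaks there were thus built in and are no separate result. Listed genes were not kept out of the clustering, and the share of all genes highest in each cluster is not given here. Of 15 listed genes known to respond to interleukin 17 and interleukin 1, 4 were highest in fibroblast-like cluster 17 and 3 in neutrophil-like cluster 22. HBC-like cluster 6 was highest for 2, HBC-like cluster 4 for 1, and other clusters for the rest. Ccl20 was highest in cluster 4 at 221 CPM, Nfkbiz in cluster 6 at 420 CPM and Cxcl2 in cluster 22 at 5587 CPM. Among receptors for member proteins, Slc22a17 and Lrp2, which take up lipocalin 2, were highest in ensheathing glia-like and sustentacular-like cells at 355 and 185 CPM, and Fpr2 in cluster 10 at 203 CPM.

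Slpi had no epithelial source of comparable size. The highest epithelial class, ionocyte-like cells, stood at 6.38 CPM. Without the 3 cells richest in member UMIs per class and library, the highest epithelial level was 2.97 CPM, also in ionocyte-like cells. In ionocyte-like cluster 20, 5 and 2 Slpi UMIs lay in barcodes with 53 and 182 UMIs of S100a8 and S100a9. The unnamed cluster 11 held 50 UMIs at 14.3 CPM. Of 131 UMIs in B lineage-like cluster 8, 129 lay in a single cell. Monocyte-like cells of cluster 13 had 391 CPM, with a UMI in 37.3% of 110 cells. The same cells had 140 CPM of Mmp8 in 31.8% of cells and 4121 CPM of S100a8, of which 47.2% lay in 3 cells.

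Outside the clusters divided above, S100a8 and S100a9 were found at a low level in nearly every cluster, and that level was higher in library 2. Leaving out cells with 20 or more UMIs of the pair, the level was 0 to 37.1 CPM in library 1 and 27.6 to 152 CPM in library 2, and it was higher in library 2 in 23 of 23 clusters with at least 30 cells in each library. In mature olfactory sensory neuron-like cells, which are not known to make the pair, it was 16.2 CPM (11.4 to 22.4) against 63.3 CPM (53.6 to 74.3), at median depths of 5123 and 4778.5 UMIs. Over all kept cells the members took 0.775% of UMIs in library 1 and 1.66% in library 2, so the library richer in neutrophil transcripts was also the one with the higher level in other cells.

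**Figure D4:**
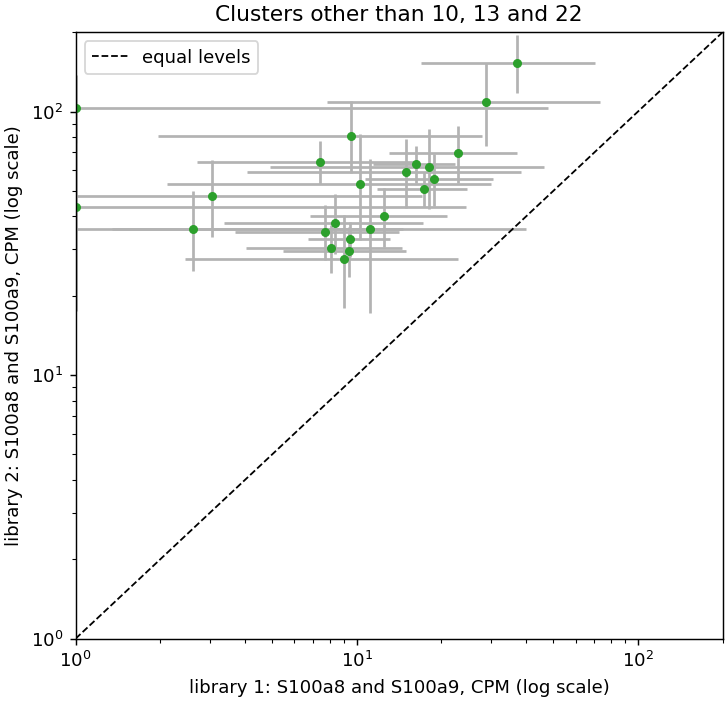
Summed level of S100a8 and S100a9 in library 1 and library 2 for the 23 clusters outside clusters 10, 13 and 22 with at least 30 cells in each library, as CPM on log axes, with 95% Poisson intervals. Cells with 20 or more UMIs of the pair are left out, clusters at 0 in library 1 are drawn at 1, and all 23 clusters lie above the dashed line of equal levels.

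The members' proportions in those cells were compared with the proportions in neutrophils. In library 2, cells outside with under 20 UMIs of the pair held 86.7 UMIs of Camp (interval 72.8 to 102) for every 1000 of the pair, and the neutrophil groups together held 89.1. Ngp had 92.3 (78.0 to 109) against 120, which lies above that interval, and Retnlg 18.8 (12.7 to 26.9) against 22.4. Ltf had 9270 against 10.9 and Lcn2 2275 against an interval of 49.4 to 50.7, both far above the neutrophil values. Slpi had 34.5 (26.0 to 45.0) against 3.69 and Mmp9 17.0 (11.2 to 24.7) against 2.83, from 55 and 27 UMIs, and so were also above them. In library 1, with 242 UMIs of the pair, Camp had 57.9 (31.6 to 97.1) against 69.1, Ngp 62.0 (34.7 to 102) against 104 and Retnlg 45.5 (22.7 to 81.3) against 31.9. Ltf, Lcn2, Slpi and Mmp9 again lay above the neutrophil values there, Slpi at 583 against 3.52 and Mmp9 at 78.5 against 3.43. Those values of Slpi and Mmp9 rest on 141 and 19 UMIs. Most of these Slpi UMIs lay in the single B lineage-like cell described above. In sensory neuron-like clusters alone Lcn2 had 126 (87.0 to 178) in library 2, above that of the neutrophil groups. Camp and Retnlg thus had intervals that held the neutrophil proportion in both libraries, and Ngp lay below it in both. No expression outside myeloid clusters was read from UMIs of S100a8, S100a9, Camp, Ngp or Retnlg at this level, and their source was not tested.

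A few cells stood above that level. Of 7702 cells outside the divided clusters, 15 had at least 20 UMIs of the pair, 3 in library 1 and 12 in library 2, and they held 84.2% of the pair's UMIs there. Their median depth was 16975 UMIs, against 5345.5 for all outside cells. Clusters differ in depth, and set against the median of its own cluster a cell's depth ranged from 0.470 to 8.47 times that value. One ciliated-like cell held 984 UMIs of the pair with 94 of Camp and 119 of Ngp. Whether such barcodes hold more than a single cell was not tested.

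Between the libraries, neutrophil-like cells had closely similar levels of most members. S100a8 stood at 171438 CPM over 93 cells in library 1 and 170810 CPM over 287 cells in library 2. No member differed by 2-fold or more, against 6.74% of 3028 genes higher in library 2 and 2.25% lower. The 2 largest log2 differences were -0.49 for Retnlg (interval -0.55 to -0.44), with 10478 CPM in library 1 and 7441 in library 2, and 0.41 for Camp (0.38 to 0.45), with 19638 and 26171 CPM. Within the Ly6g group they were -0.44 and 0.27, with none of 10 members past 2-fold against 4.87% of 924 genes higher and 0.866% lower. Within the Asprv1 group Retnlg differed by -0.36, and Ltf was past 2-fold at 2.09, against 6.43% of 342 genes higher and 0.585% lower, with 6 UMIs in library 1 and 85 in library 2. Of those 85 UMIs, 55 lay in a single cell. Within the Il1b group Ngp was past 2-fold, against 2.17% of 507 genes higher and 0.986% lower, with 3 and 109 UMIs. Of the 109, 97.2% lay in 3 cells. Retnlg did not keep its direction in that group, with 1790 CPM in library 1 and 2050 in library 2, a log2 difference of 0.20 (interval -0.13 to 0.52).

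**Figure D5:**
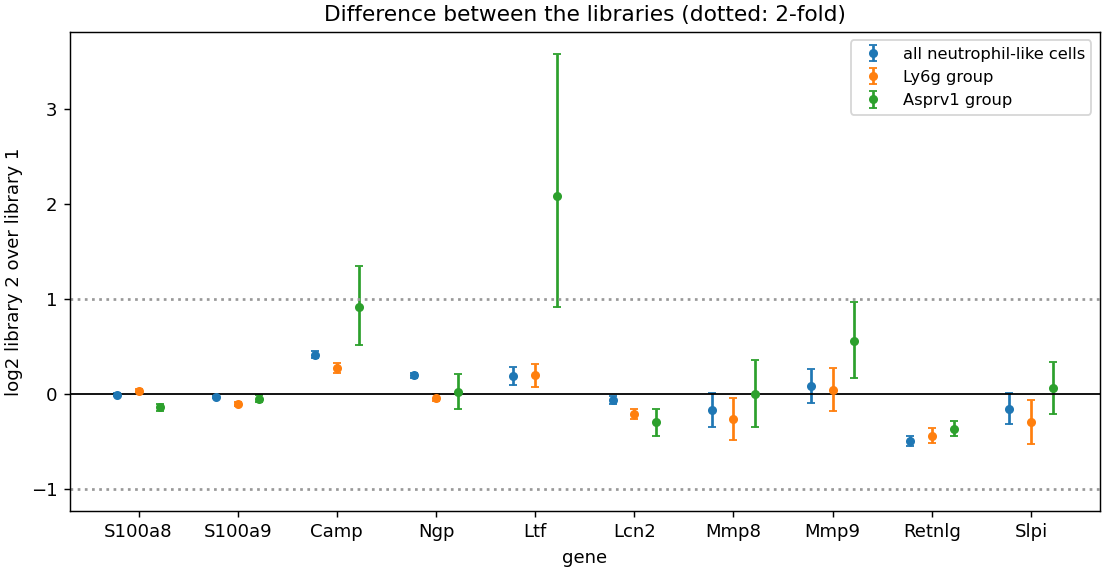
Log2 difference between library 2 and library 1 for each gene in all neutrophil-like cells, the Ly6g group and the Asprv1 group, with 95% intervals of counting error and dotted lines at 2-fold. Only Ltf in the Asprv1 group lies past 2-fold, from 6 and 85 UMIs, and Retnlg is lower in library 2 in the 3 sets plotted but not in the Il1b group, which is not plotted and where its log2 difference was 0.20.

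The libraries held the groups in different proportions. The Il1b group made up 43.6% of 94 neutrophil group cells in library 1 and 21.1% of 303 in library 2. The Mpo and Fcnb groups had 6 and 5 cells in library 1 and 43 and 28 in library 2. Summed levels over all neutrophil-like cells therefore move with the mix of groups, and within-group values are given beside them. Because sides, libraries and captures coincide, these differences cannot be told apart from a difference between captures.

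In epithelium, Lcn2 differed between the libraries in HBC-like cluster 4. It stood at 1073 CPM over 171 cells in library 1 and 335 CPM over 258 cells in library 2, a log2 difference of -1.68 (interval -1.83 to -1.53). Of 6079 genes there, 0.674% were at least 2-fold lower and 1.12% higher in library 2. Without the 3 highest cells of each library the Lcn2 levels were 721 and 282 CPM, and a UMI was seen in 51.5% and 43.0% of cells. In HBC-like cluster 6 the log2 difference was -0.43, with 0.694% of genes past 2-fold higher and 0.449% lower. In clusters 11 and 14 Lcn2 differed by -0.72 and 0.31, neither past 2-fold. Ltf differed by 0.24, 0.22 and -0.82 in clusters 4, 11 and 14.

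Larger differences in clusters 11 and 14 concerned genes carried by few cells. In cluster 11, S100a8, S100a9, Camp, Ngp and Retnlg were at least 2-fold lower in library 2, against 0.409% of 7087 genes, and Slpi was higher, with 10 and 40 UMIs, against 0.804%. The 3 cells of library 1 with at least 20 UMIs of the S100 pair lay in that cluster, and a single one of them held 967 of the 1844 S100a8 UMIs there. In cluster 14 S100a8 was past 2-fold higher in library 2 with 3 and 83 UMIs, against 1.58% of 5566 genes higher and 0.377% lower, and a single cell held 40 of the 83.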

How the data were processed

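Single cells of 2 samples of olfactory epithelium were measured with 10x Chromium 3′ version 3 chemistry. The deposited file is a single matrix of UMI counts per gene and barcode that pools both samples. Per the submitters' processing notes, Cell Ranger 3.0.2 and mm10 were used. Sources used here do not say whether depth was equalised when the libraries were joined. No per-sample column was left unused (0 such columns).

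Cells were kept from 1000 UMIs and 500 genes upward with mitochondrial UMIs of 10% or less. Cells were clustered without the 10 genes on 2000 variable genes, 30 principal components and a 15-neighbour graph with Leiden (leidenalg 0.10.2) at resolution 1.0, and clusters were named X-like from fixed markers of which at least 3 had to lead. Clusters 10, 13 and 22 were divided again, a step added after seeing the data, since cells with the early stage markers lay in a monocyte-like cluster. Levels are CPM of summed UMIs. Log2 differences use a pseudocount of 1 CPM and genes with at least 50 UMIs. Intervals are exact Poisson (Clopper-Pearson for shares) at 95% and cover counting error only. Doublets were not removed in the main analysis, since scrublet in scanpy 1.11.5 marked 7 of 8298 cells, too few to have worked. Its highest scores served only for an alternative and to describe the mixed sub-cluster. The comparison and similarity steps were tested on simulated data, where 178 of 178 compared genes changed by 2 on the log2 scale were recovered past 2-fold in a simulation of the Asprv1 and Ly6g groups with counting error only, and 20 of 991 unchanged genes also passed 2-fold.

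The 10 genes and the lists of markers and pathway genes were chosen with earlier results of these data known. The genes named are the members, the genes of those lists and, for each member, the 3 genes most correlated over clusters. Ctsk and Acp5, the leading genes of clusters, and the cells singled out were chosen after their values were seen. Of 266 markers listed, 265 were found in the matrix. Sequences are RefSeq windows on GRCm38.p6.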

Additional observations from a re-analysis of the deposited data

Results flagged for a closer look

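Of the 10 genes, Ltf and Mmp9 had over 10% of their UMIs in barcodes that the cell filter removed, and no comparison used those barcodes. For Ltf the share was 16.3%, with 5120 of 31479 UMIs. The richest removed barcode held 691 UMIs of Ltf at 10.5% mitochondrial UMIs, just past the limit, in library 2. For Mmp9 the share was 32.2%, with 974 of 3025 UMIs. A single removed barcode of library 2 held 671 of them at 14.8% mitochondrial UMIs, together with 910 UMIs of Ctsk, 1043 of Acp5 and 1 of S100a8.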

How the results depend on the processing

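Each of 7 results was recomputed under 8 alternatives fixed beforehand and 2 added after seeing the data, which left S100a8 and S100a9 out of the totals or left out the mixed sub-cluster. Leaving the pair out of the totals does not apply to the share of member UMIs. A value is called moved where it left the 95% counting interval of the reported one. Without replicates, that interval is narrow for abundant genes. The difference of S100a8 and S100a9 between libraries in mature olfactory sensory neuron-like cells, 1.90 on the log2 scale, stayed within its interval in 10 of 10, from 1.80 to 2.49.

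The share of member UMIs in neutrophil-like cells, 88.3%, moved to 93.9% with at least 2500 UMIs per cell, 90.8% with at most 5% mitochondrial UMIs, 89.7% with the members among the variable genes, 94.1% at resolution 2.0, 93.6% without the highest doublet scores, 94.1% without the 3 richest cells per class and library, 95.9% with each cell thinned to 1000 UMIs and 87.7% without the mixed sub-cluster. The summed member level, library 2 over library 1, was 0.015 and had no stable direction. It reversed to -0.14 at 2500 UMIs and to -0.17 at resolution 2.0, and moved to 0.047 with at least 500 UMIs and 300 genes, 0.076 at 5% mitochondrial UMIs, 0.20 without doublet scores, 0.047 without the richest cells, 0.23 when thinned and 0.13 without the mixed sub-cluster.

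The comparison of the first and last neutrophil-like clusters was not stable. For Camp, Ngp and Ltf, -9.38 between clusters 10 and 22 moved to -6.66 with at least 500 UMIs, -7.00 at 5% mitochondrial UMIs and -8.54 at resolution 2.0, and reversed to 3.45 at 2500 UMIs. For Mmp8, Mmp9 and Retnlg, -2.67 moved to -2.29 with at least 500 UMIs, -3.44 when thinned and -3.07 without the pair in the totals, and reversed to 5.02 at 2500 UMIs, 3.36 at 5% mitochondrial UMIs and 2.50 at resolution 2.0. The marker rule picked the compared clusters anew in each setting, and the report describes 5 groups in place of that pair. The cause was not tested.

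The highest epithelial Lcn2 level was 504 CPM in HBC-like cells. It moved to 758 CPM with at least 500 UMIs, 550 CPM at 2500 UMIs, 1396 CPM at 5% mitochondrial UMIs, 542 CPM with the members among the variable genes and 620 CPM when thinned, all in respiratory secretory-like cells, to 734 CPM in gland duct-like cells at resolution 2.0 and to 530 CPM in ciliated-like cells without doublet scores. Without the 3 richest cells respiratory secretory-like cells were highest too, at 497 CPM, so which epithelial class is highest is not settled. The highest epithelial Slpi level, 6.38 CPM, moved to 20.1 CPM in gland duct-like cells at resolution 2.0. Depth limits the groups with shallow cells most, since 1574 UMIs per cell leave rare members unseen. No paired analysis was possible, since each side has only 1 library and no label ties a barcode suffix to a side. No test was made.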

Other observations

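The 5 barcodes with the most Mmp9 UMIs had 671, 151, 108, 100 and 73, and none of them had more than 1 UMI of S100a8. Each also held Ctsk and Acp5, at 43 to 910 and 37 to 1043 UMIs. The next barcode, in neutrophil-like cluster 10, had 25 UMIs of Mmp9 with 768 of S100a8 and none of Ctsk or Acp5. The barcode with the most Ltf, in gland acinar-like cluster 24, had 2288 UMIs of it among 34155, and no Lcn2.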
